A study of Drosophila melanogaster with 12 samples.

Results

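Osi6 and Osi7 are neighbouring members of the Osiris gene family of insects, and their transcript levels were followed in developing Drosophila melanogaster mushroom body γ neurons. They were the 2 rows, of 17050 genes in the deposited expression table, whose gene symbol was Osi6 or Osi7. The pair was picked because both fell steeply between 6 h and 24 h after puparium formation (APF) in replicates B and C. Their own levels are therefore given as a description, with no test.

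The study profiled γ neurons by MARS-seq, a bulk method that reads the 3′ ends of polyadenylated transcripts, in 3 libraries (A, B and C) at each of 6, 12, 18 and 24 h APF. Each library was made from 1000 DsRed-positive cells sorted from dissociated pupal brains of both sexes. All 12 libraries came from 1 genotype: y,w over a + chromosome, UAS-RedStinger over +, and the 71G10 driver opposite a UAS-HR51 RNAi insertion. The driver labels γ neurons with RedStinger, a nuclear DsRed, and expresses the RNAi against Hr51, which encodes the nuclear receptor UNF. Every library thus carried the knockdown, so the 4 groups differ by age and a control genotype is not analysed here. The cells were defined by the activity of 1 driver and by a fluorescence sort, and the labels do not say how many animals or dissections each library represents. P-values below measure only the spread between these libraries.

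Osiris genes encode small secreted or membrane proteins found in insects and largely in no other animals. Most lie in one cluster on chromosome arm 3R, in the dosage-sensitive Triplo-lethal region, and they are best known from epithelia that secrete cuticle, such as epidermis and trachea, where they are switched on in short bursts around cuticle formation. Neurons are not a tissue in which the family is usually described. Gamma neurons, for their part, prune their larval axon branches early in metamorphosis under control of the steroid hormone ecdysone and later regrow adult ones.

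Osi6 (FBgn0027527) occupies 3R:6234708-6237181 on the plus strand of the BDGP6 (dm6) assembly. Its annotation holds 2 transcripts of 2 exons each, with 936 coding bases for 312 residues, and 3′ untranslated regions of 578 and 879 bases. Osi7 (FBgn0037414) lies downstream on the same strand at 3R:6248994-6251683, as 1 exon of 2690 bases with 864 coding bases for 288 residues and a 3′ untranslated region of 1610 bases. Between the pair are 11812 bases that hold 0 annotated genes, and no other annotated gene overlaps either member.

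Mapped depth was 1597241 to 3752666 reads per library, with a median of 2345770. Values are reads per 10000000 mapped reads, so the 3 reads that a count of 0 allows were worth 7.99 to 18.8. All 20 Kenyon cell markers examined passed the low-value filter described below, and their summed level was 231179 to 363091 in the 12 libraries. A large part of that sum was mamo, at 83570 to 181831. The filter does not require a marker in every library, and sNPF had 0 reads in 6 h A. The identity of each library was not tested. Replicate letters did not pair the libraries. The A libraries of the first 2 times stood apart from their groups. Across the 6969 genes that passed the filter, 6 h A correlated best with 18 h B (r = 0.87) and 12 h A with 6 h B (r = 0.87), where r is Pearson's coefficient on log2(value + 1). A best match of another age was not particular to them: 12 h B and 18 h A matched each other best, and 18 h C matched 24 h C. However, 6 h A correlated less with 6 h B (r = 0.74) and 6 h C (r = 0.71) than with any other library. The correlations of 12 h A with 12 h B (r = 0.83) and 12 h C (r = 0.80) were below those with 6 h B and 6 h C (r = 0.85). The labels were kept as given, whether they are right was not tested, and every direction drawn from the libraries labelled 6 h A and 12 h A rests on them.

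At 6 h APF, Osi6 stood at 4.307 in replicate A, 2425 in B and 1471 in C. At 12 h it stood at 416 in A, 60.2 in B and 16.2 in C. At 18 h the values were 0, 16.9 and 4.946, and at 24 h they were 0, 3.164 and 14.5. Osi6 was thus high in both B and C at 6 h and, among the A libraries, at 12 h rather than at 6 h. In reads, the 6 h libraries held 1, 910 and 235, and the 12 h libraries 125, 18 and 3, whereas no library at 18 or 24 h held more than 4.

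Osi7 followed the same libraries. Its 6 h values were 0 in A, 1442 in B and 2116 in C. Its 12 h values were 1042 in A, 13.4 in B and 5.397 in C. No Osi7 read was recorded in any of the 6 libraries at 18 and 24 h. The 3 reads that a count of 0 allows correspond to levels of 9.49 to 15.3 in these libraries, so Osi7 was not detectable there at this depth. In a bulk library, fewer cells with a transcript and less transcript per cell cannot be told apart.

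**Figure D1:**
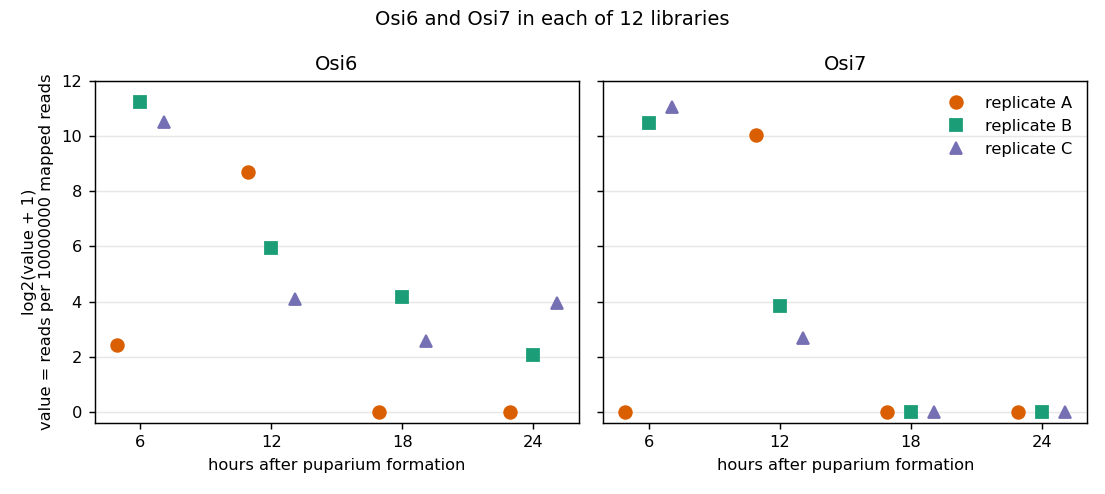
Osi6 and Osi7 in each of the 12 libraries, in reads per 10000000 mapped reads on a log2(value + 1) axis, against hours APF, with 1 point per library and replicates A, B and C marked. At 6 h replicates B and C sit between 1442 and 2425 for both genes while A sits at 4.307 for Osi6 and 0 for Osi7, and at 12 h A is the highest library for both genes.

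Over all 3 replicates, Osi6 averaged 1300 ± 1219 (SD, n = 3) at 6 h and 164 ± 219 at 12 h. Its later means were 7.27 ± 8.68 at 18 h and 5.90 ± 7.64 at 24 h. Osi7 averaged 1186 ± 1081 (SD, n = 3) at 6 h and 354 ± 596 at 12 h, and 0 at both later times. The SD at 6 h was nearly the mean itself, and for both genes the 12 h values lay inside the 6 h range. With all libraries, then, 6 h and 12 h did not differ beyond their spread for either gene.

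In replicates B and C alone the order was plainer. Osi6 averaged 1948 ± 674 (SD, n = 2) at 6 h and 38.2 ± 31.1 at 12 h, then 10.9 ± 8.44 at 18 h and 8.85 ± 8.03 at 24 h. The 6 h level stood above every later one. The neighbouring levels at 12 and 18 h overlapped, as did those at 18 and 24 h. Osi7 averaged 1779 ± 477 (SD, n = 2) at 6 h and 9.39 ± 5.65 at 12 h in these replicates, with the 6 h libraries again above all others.

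As ratios of pooled reads per mapped read in B and C, Osi6 was 49.3 times higher at 6 h than at 12 h (95% exact interval 32.1 to 80.0) and 253 times higher than at 24 h (108 to 781). Osi7 was 159 times higher at 6 h than at 12 h (67.9 to 491) and at least 324-fold higher than at 24 h, where the pooled count of 0 was set to 3 reads. These intervals and bounds cover counting error only. Between 12 and 18 h Osi6 was 3.81 times higher at the earlier time (1.40 to 12.9), and its 18 h to 24 h ratio of 1.35 had an interval of 0.310 to 5.85.

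The libraries labelled replicate A ran the other way over the first interval. There Osi6 was 96.6 times higher at 12 h than at 6 h, with a wide interval of 17.0 to 3847 because the 6 h library held 1 read. Osi7 was at least 80.7-fold higher at 12 h than at 6 h in the same libraries, and then at least 80.1-fold lower at 18 h. Pooling all 3 replicates gave 6 h to 12 h ratios of 8.03 for Osi6 (6.75 to 9.60) and 2.83 for Osi7 (2.48 to 3.22).

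On the log2(value + 1) scale, which understates changes at low values, the mean change from 6 to 24 h over all 12 libraries was −6.05 for Osi6 and −7.18 for Osi7. With B and C alone it was −7.88 for Osi6 and −10.77 for Osi7. From 6 to 12 h the 12-library changes were −1.81 and −1.66, against −5.86 and −7.51 in B and C.

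Few genes varied as much between the 6 h libraries. The SD of log2(value + 1) over the 3 libraries was 6.22 for Osi7, rank 4 among the 6969 genes, and 4.91 for Osi6, rank 35, where the median gene had 0.62. At 12 h the SD was 3.95 for Osi7 (rank 49) and 2.32 for Osi6 (rank 449), beside a median of 0.51. Between replicates B and C at 6 h the pair was unremarkable: the log2 difference was 0.72 for Osi6 and 0.55 for Osi7, and that of the median gene was 0.54. The pair was picked for its fall in B and C, which needs both to be high at 6 h. Osi7 also passed the filter only through 6 h B, 6 h C and 12 h A. Nothing is therefore read from these ranks and differences.

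The balance between the 2 genes is given for single libraries, with intervals that cover counting error only and not the spread between libraries. Osi7 supplied 37.3% of the pair's reads in 6 h B (541 of 1451; 95% exact binomial interval 34.8 to 39.8%) and 59.0% in 6 h C (338 of 573; 54.8 to 63.0%). In 12 h A it supplied 71.5% (313 of 438; 67.0 to 75.6%). The values of 6 h B and 6 h C, which share an age, lie as far apart as 37.3% and 59.0%. In 12 h B and C together the share was 19.2% (5 of 26; 6.55 to 39.4%), and at 18 and 24 h all 10 reads of the pair were Osi6, which allows an Osi7 share of up to 30.8%. How well each 3′ end is captured was not measured, so the share compares libraries and not the absolute amounts of the 2 transcripts.

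**Figure D2:**
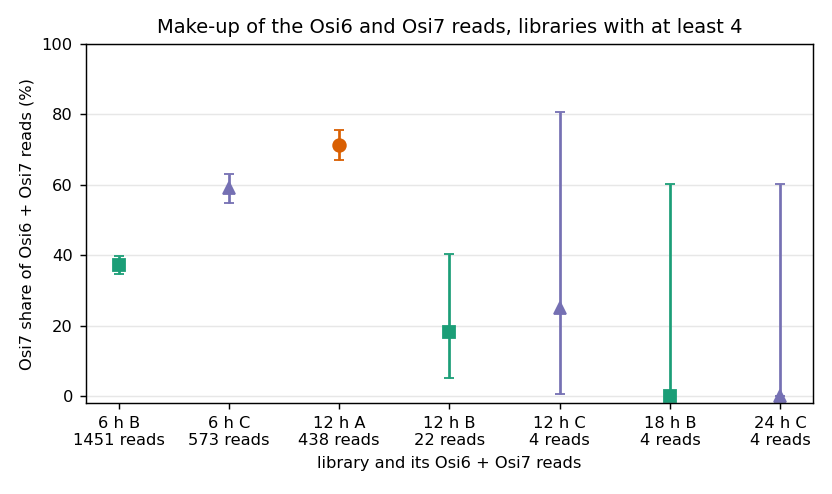
Share of the Osi6 and Osi7 reads that came from Osi7, in percent, for each library with at least 4 reads of the pair, with 1 point per library and bars giving the 95% exact binomial interval. The share runs from 37.3% in 6 h B to 71.5% in 12 h A among the 3 libraries with most reads, and the libraries with few reads have wide intervals.

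Most of the family was silent or nearly so. Of the 24 Osiris genes in the table, 11 had 0 reads in all 12 libraries (Osi1, Osi4, Osi8, Osi10, Osi11, Osi12, Osi13, Osi16, Osi21, Osi22 and Osi23), and another 7 had 20 reads or fewer. The cluster holds 21 of the 24 and spans 167.9 kb at 3R:6173549-6341424. The genes next to the pair shared little of its signal. On the near side Osi5 had 7 reads, all in 12 h A, and Osi4 had 0. On the far side Osi8 had 0 reads, Osi9, which acts in the maturation of tracheal tubes, had 3, and Osi10 had 0.

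Apart from Osi24, 3 other family members had more than 20 reads, most of them in 6 h B, 6 h C and 12 h A. Osi14 stood at 1228 in 6 h B but 43.8 in 6 h C and 0 in 6 h A, and at 110 in 12 h A, with 8.44 or less in the remaining 8 libraries. Unlike Osi6 and Osi7, it thus differed widely between 6 h B and 6 h C. Osi15, also a tracheal maturation gene, stood at 0, 93.3 and 87.7 in 6 h A, B and C and at 56.6 and 10.04 in 12 h A and B. Osi19, of the same tracheal group, was highest in 12 h A at 69.9, beside 2.67 in 6 h B and 18.8 in 6 h C. Leaving out the pair and Osi24, the remaining 21 family members together had 652 reads, of which 522 were in 6 h B, 83 in 12 h A, 31 in 6 h C and 9 in all 6 libraries at 18 and 24 h. In 6 h A these 21 genes had 1 read. Osi14 alone gave 461 of the 522 reads in 6 h B, and without it the counts were 61 in 6 h B, 24 in 6 h C and 50 in 12 h A.

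Osi24 was the exception. It was present in every library, between 1118 and 2460, and averaged 1780 ± 666 (SD, n = 3) at 6 h and 2025 ± 370 at 12 h, then 1272 ± 134 at 18 h and 1864 ± 324 at 24 h. Its log2 change from 6 to 24 h was 0.12 ± 0.29 (SE; limma, Benjamini-Hochberg adjusted p = 0.914), and −0.30 ± 0.28 in B and C (limma, adjusted p = 0.613). Osi15 did not pass the test either, at −4.34 ± 2.58 over all libraries (limma, adjusted p = 0.493) and −6.51 ± 2.65 in B and C (limma, adjusted p = 0.150). The remaining family members did not reach 50 in 3 libraries and were not tested in this fit, Osi14 among them, which reached it in 6 h B and 12 h A only. With no filter on low values, 13 family members were tested and 0 called over the 12 libraries. Of all genes, 0 of 10258 were called with no filter and 0 of 6969 with it. Nothing about the family is therefore read from the 12-library results.

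**Figure D3:**
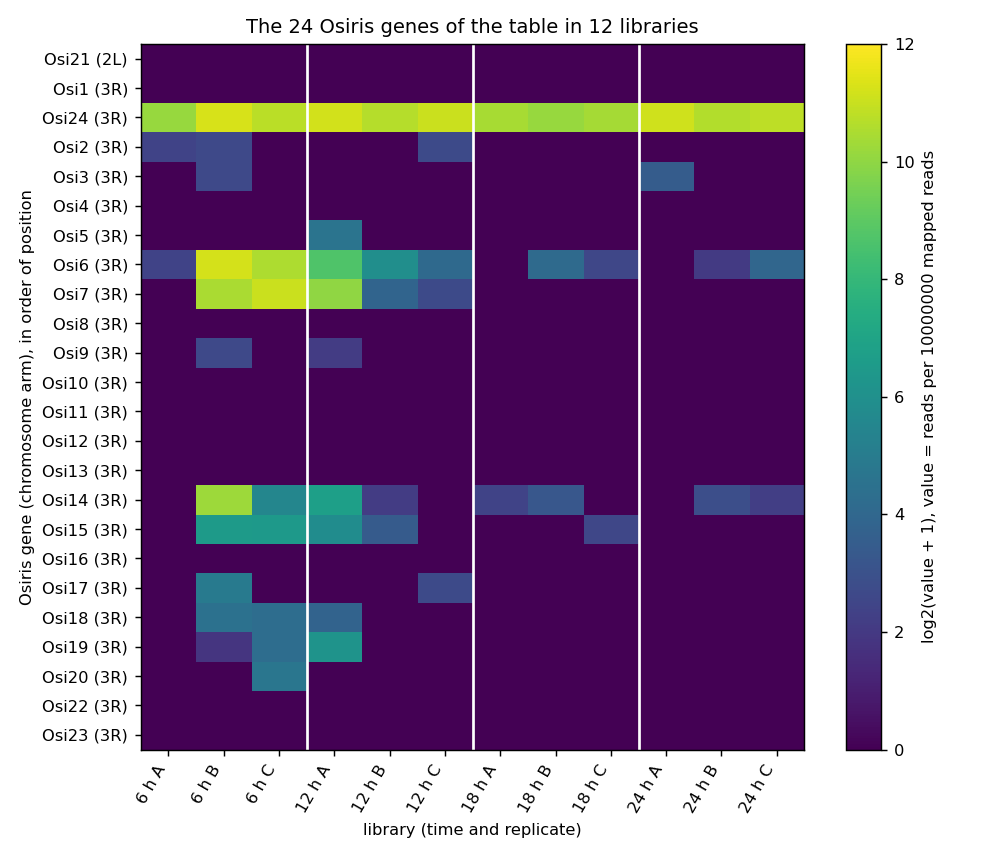
Heat map of the 24 Osiris genes, in rows by chromosome position, in each of the 12 libraries, in columns by time and replicate, coloured by log2(value + 1) of reads per 10000000 mapped reads. Osi6 and Osi7 are high in 6 h B, 6 h C and 12 h A, Osi24 lies between 1118 and 2460 throughout, and most other rows hold few or 0 reads.

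Over the 12 libraries, log2(value + 1) of Osi6 and of Osi7 correlated at r = 0.93 (Spearman's rho = 0.86). This is a description of 12 points that share 4 ages and 3 replicate letters. Among 6968 other genes, Osi7 ranked second in likeness to Osi6 by r, and Osi6 ranked 40 in likeness to Osi7. The 8 genes most like Osi6 were CG13868, Osi7, CG12164, TwdlT, CG34354, CG14109, CG2150 and Btk29A, at r from 0.91 to 0.94. Without 6 h B and 6 h C their r was 0.79 to 0.84. The 8 most like Osi7 were CG14109, TwdlT, CG17075, CG34354, CG17124, CG12164, CG17341 and CG13868, at r from 0.97 to 0.98, and 0.93 to 0.97 without those 2 libraries. The lists share 5 names. When the likeness was computed in B and C alone, 1 of the 8 named genes was kept for each member.

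Apart from the members, 10 genes were named, and for 9 of them 6 h B, 6 h C and 12 h A were the 3 highest libraries, the exception being CG2150. That count follows largely from choosing the genes by r over these same libraries, and nothing is read from it. The 10 genes were of 2 kinds. In 4 genes, TwdlT, CG14109, CG12164 and CG2150, some libraries had 0 reads, as for the pair. TwdlT, of the Tweedle family of cuticular proteins, stood at 0, 719 and 883 in 6 h A, B and C and at 496, 30.1 and 10.8 at 12 h, with 3.164 or less afterwards. TwdlT shares its position with the annotated gene RYa-R, so their reads cannot be told apart with certainty. The other 6 genes were present in every library and moved over a narrower range, such as CG13868 between 1693 and 5082, and Btk29A, a Tec-family tyrosine kinase, between 2789 and 10543.

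**Figure D4:**
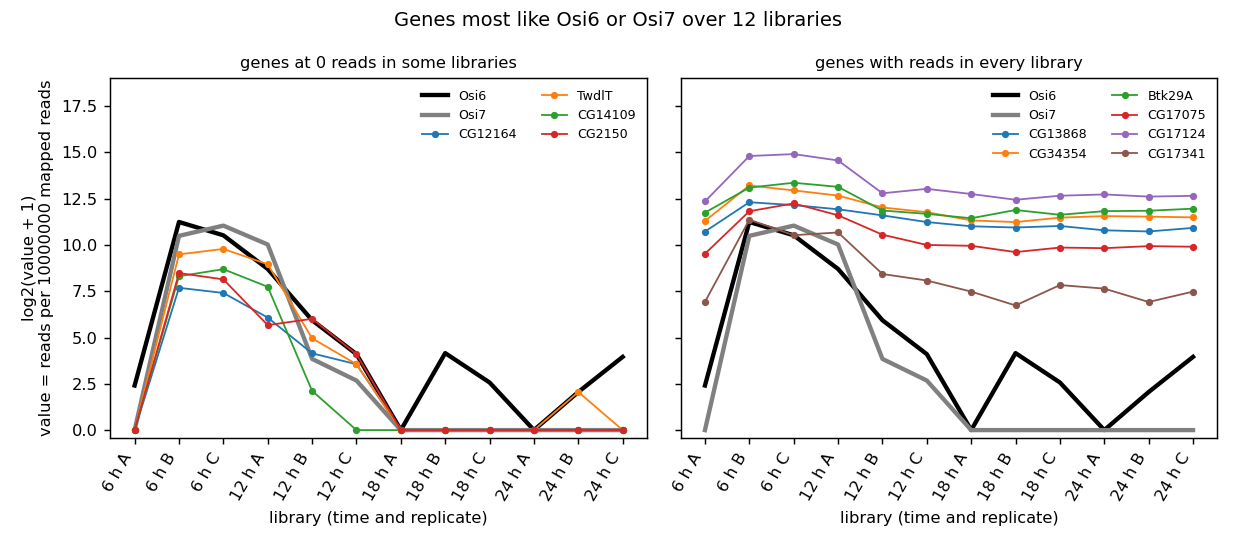
Lines of log2(value + 1), in reads per 10000000 mapped reads, over the 12 libraries ordered by time and replicate, for Osi6, Osi7 and the 10 genes most like them, split into the 4 at 0 in some libraries and the 6 with reads in every library. The libraries 6 h B, 6 h C and 12 h A are the 3 highest for 9 of the 10 genes, which follows largely from their choice by likeness. The lines of the 6 genes present everywhere are flatter than those of the pair.

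To place the pair, changes across all genes were fitted with limma on log2(value + 1) for genes at 50 or more in at least 3 libraries. With all 12 libraries 0 of 6969 genes (0%) passed an adjusted p of 0.05 from 6 to 24 h, although 943 had an unadjusted p under 0.05. On the recovered reads edgeR called 0 genes and DESeq2 171. With replicates B and C alone limma called 702 genes (10.1%), of which 369 were higher at 24 h (5.29%) and 333 lower (4.78%). From 6 to 12 h it called 390 genes in B and C (5.6%), 230 of them higher at 12 h (3.3%) and 160 lower (2.3%). From 12 to 18 h it called 25 (0.359%), with 0.0287% of genes higher and 0.33% lower, and from 18 to 24 h 9 (0.129%), with 0.1% higher and 0.0287% lower. Osi6 and Osi7 are among the genes lower at 24 h in B and C, which is the pattern they were picked for, and nothing is read from that.

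Cuticular proteins form the layers of the insect exoskeleton. Of 124 cuticular protein genes in the table, 80 had 0 reads in all libraries and 6 were tested. None was called over all 12 libraries. In B and C, 1 of the 6 was lower at 24 h than at 6 h, against 4.78% of all genes, and none higher. The one was TwdlT, which fell by 8.61 ± 2.001 on the log2 scale in B and C (SE; limma, adjusted p = 0.0102). Over all 12 libraries its change was −5.74 ± 2.44 (limma, adjusted p = 0.327). Since TwdlT passed the filter only through 6 h B, 6 h C and 12 h A, nothing is read from its call. The median change of the 6 was −0.28 in B and C, where that of all genes was 0.07, and −0.67 over all libraries, where that of all genes was −0.0029. Without TwdlT the list's summed level was 439 to 850 at 6 h and 528 to 1271 at 24 h, which overlap.

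Chitin and cuticle assembly genes numbered 29, with 11 tested. Over all libraries none was called and the median change was −0.26. In B and C 2 were lower at 24 h, against 4.78% of all genes, and none higher, with a median of −2.64. Their summed level was 2326, 3701 and 4376 in 6 h A, B and C. It was 2164 to 3294 at 12 h, 2354 to 3573 at 18 h and 1743 to 2695 at 24 h. The largest members in 6 h C were y at 1722, Alas at 883 and mmy at 776. Of the 2 genes called, the first was verm, a chitin deacetylase. It stood at 0, 560 and 269 at 6 h, at 59.9, 13.4 and 5.397 at 12 h and at 30.6 or less later. In B and C verm fell by 8.60 ± 2.20 (SE; limma, adjusted p = 0.0194). Over all 12 libraries its change was −4.08 ± 2.39 (limma, adjusted p = 0.485). As verm passed the filter only through 6 h B, 6 h C and 12 h A, nothing is read from its call. Like the pair it was high in 6 h B and 6 h C, but in 12 h A it was at a lower level than in either. The second was y, which encodes the pigmentation protein Yellow and is mutated in the parental strain. It stood at 0, 845 and 1722 in 6 h A, B and C, at 1006, 562 and 588 at 12 h, at 594, 29.5 and 277 at 18 h and at 321, 15.8 and 156 at 24 h. It fell by 4.55 ± 1.04 in B and C (SE; limma, adjusted p = 0.0094). In replicate A it stood higher at 24 h than at 6 h, and over all 12 libraries its change was −0.26 ± 2.02 (limma, adjusted p = 0.978). The gene kkv, for the epidermal and tracheal chitin synthase, had 1 read in all, as did knk, and reb had 0.

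Markers of cells other than γ neurons were examined because Osiris genes are known from epithelia, and their part in the levels of the pair was not tested. Of 12 tracheal markers 6 were tested, and 1 (verm, which also stands in the chitin list) was lower in B and C at 24 h, against 4.78% of all genes, with a median of −4.36. Since verm passed the filter only through 6 h B, 6 h C and 12 h A, nothing is read from that call. Over all libraries none was called and the median was −1.40. Their summed level was 77.5, 1063 and 764 in 6 h A, B and C, and 589, 385 and 1015 in 12 h A, B and C. It was 388 to 568 at 18 h and 342 to 389 at 24 h. The sum was thus lowest in 6 h A, where the pair was nearly absent, and highest in 6 h B and 12 h C. Different members made up these sums, with verm the largest in 6 h B at 560, and sty at 680 and btl at 232 the largest in 12 h C. The chitin deacetylase gene serp stood at 0, 179 and 106 in 6 h A, B and C and at 186 in 12 h A, so its 3 highest libraries were those of the pair. The transcription factor gene vvl stood at 0, 107 and 31.3 in 6 h A, B and C, and had 1 read in 12 h A. The tracheal receptor gene btl stood at 4.307, 2.665 and 100 in 6 h A, B and C. Of 17 epithelial junction and epidermis markers 13 were tested, with 1 higher (sdt) and 1 lower (baz) in B and C, against 5.29% and 4.78% of all genes, and a median of −0.62. Over all libraries none was called and the median was −0.12. Their summed level was 10067 to 11259 at 6 h, 10704 to 13465 at 12 h, 10521 to 11421 at 18 h and 11585 to 12613 at 24 h, and these ranges overlap between neighbouring ages up to 18 h. Among the epidermal genes pnr had 0 reads in all libraries and grh had 45.

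The other cell lists were compared in B and C between 6 and 24 h, where 5.29% of all genes were higher and 4.78% lower. Among sensory organ support cell markers, 2 of 3 tested were higher (pros and qtc) with a median of 1.22, while nompA and Poxn had 0 reads. In the 12 libraries pros stood at 47250 to 133157, above the pan-neuronal gene elav at 12285 to 20359. Its level therefore cannot be read as that of support cells. Of the glial markers 1 of 4 tested was lower (nrv2), with a median of −0.95. The glial sum was 3106, 6118 and 5121 in 6 h A, B and C, 3605 to 4423 at 12 h, 2936 to 4778 at 18 h and 2397 to 3769 at 24 h, so 6 h B and 6 h C stood above all other libraries. At 6 h most of it was nrv2, which stood at 2210, 4690 and 3988 in A, B and C. The high sums of 6 h B and 6 h C thus rest largely on nrv2. Single glial markers differed. The glial transcription factor gene repo stood at 51.7, 2.665 and 6.261 in 6 h A, B and C. Also highest in A at that age were wrapper at 12.9, 0 and 0, Eaat1 at 8.62, 2.665 and 0 and Gs2 at 21.5, 0 and 0. By contrast, loco stood at 8.62, 79.9 and 144, Gli at 0, 24.0 and 81.4, moody at 0, 42.6 and 6.261 and gcm2 at 0, 34.6 and 0. The marker alrm had 0 reads at 6 h. Of the hemocyte markers 1 of 2 tested was higher (Pxn), with a median of 1.59, and Hml, NimC1, He and eater had 0 reads. Of the fat body markers 1 of 6 was lower (Obp44a), with a median of −0.70. Of the muscle markers 3 of 5 were higher (Msp300, bt and Mef2, the last also a Kenyon cell marker), with a median of 2.49. None of 4 apical matrix and cell shape genes and none of 4 genes of dividing cells was called, with medians of −0.29 and −1.74. With all 12 libraries none of these genes was called, and the medians were 0.98 for sensory support, −0.73 for glia, 0.73 for hemocytes, −0.20 for fat body, 1.92 for muscle, 0.07 for apical matrix and −0.73 for dividing cells.

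**Figure D5:**
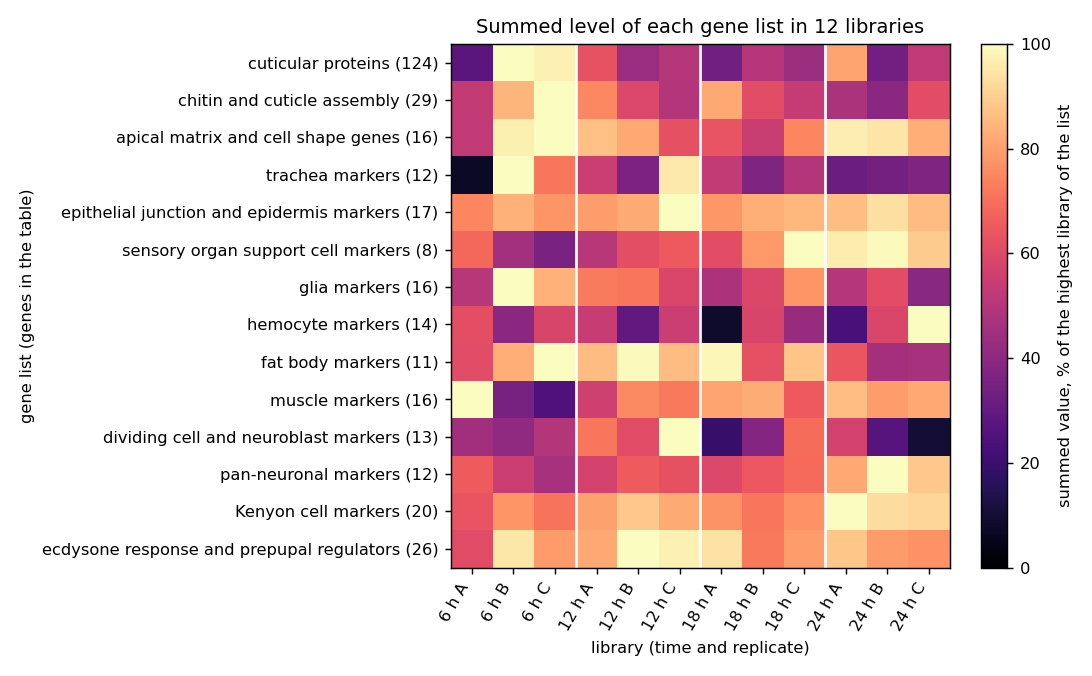
Heat map of the summed level of each gene list, in rows, in each of the 12 libraries, in columns by time and replicate, coloured as a percentage of the highest library of that list. The tracheal sum is lowest in 6 h A at 77.5 and highest in 6 h B at 1063, and stands at 1015 in 12 h C.

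Genes of the neurons themselves were set beside the pair. Of 12 pan-neuronal genes, all tested, 6 were higher at 24 h in B and C, against 5.29% of all genes, and none lower, with a median of 0.74. Their summed level was 137013, 115582 and 97499 in 6 h A, B and C and 119874 in 12 h A, and 124698 to 209001 in the remaining libraries. It was thus lowest in 6 h C, 6 h B and 12 h A, where the pair was high. Much of that sum was fne, at 41315 to 98636, and single genes differed. Rbp9, para, nrv3 and cpo were lowest in those libraries. By contrast, elav and brp were lowest in 6 h A, at 12285 and 10183, where the pair was nearly absent. The summed level of the Kenyon cell markers was also lowest in 6 h A, at 231179. Whether any of these patterns is linked to that of the pair was not tested. Of the 20 Kenyon cell markers 8 were higher and 2 lower in B and C, against 5.29% and 4.78% of all genes, with a median of 0.57. Over all libraries none of either list was called, with medians of 0.63 and 0.66. Of 23 tested genes of the ecdysone response 3 were higher and 8 lower in B and C, against the same 5.29% and 4.78%, with a median of −0.74. None was called over all 12 libraries, where the median was −0.61. Kr-h1 stood at 8.62, 6675 and 5491 in 6 h A, B and C, at 2628 in 12 h A and at 265 or less elsewhere. It fell by 5.75 ± 0.76 in B and C (SE; limma, adjusted p = 8.1e-05). Over all 12 libraries its change was −2.67 ± 1.89 (limma, adjusted p = 0.580). Hr46, Hr4, vri and Eip74EF were also highest in 6 h B, 6 h C and 12 h A, whereas EcR and Blimp-1 were lowest there. Hr51 itself stood at 2661 to 5666 in the 12 libraries, all of which carry the RNAi, so its knockdown cannot be gauged here.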

How the data were processed

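γ neurons of 1 genotype were profiled in 3 libraries at each of 4 ages. The authors deposited 1 table of normalized signal per gene, reads per 10000000 mapped reads, per the file headers. Tools listed in the submitters' processing notes are HISAT 0.1.5, HOMER and bcl2fastq. Osiris genes are paralogs, and the sources used here do not say how reads shared by similar genes were assigned. Table starts are counted from 0, so 1 was added.

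All values (100%, within 0.02) were whole multiples of 1 read, from which reads were recovered. Summed over genes they were 99.3 to 101.7% of mapped reads, so some reads counted for more than 1 gene. Changes between ages were fitted with limma 3.58.1 in R 4.3.3 (trend) on log2(value + 1), for 6969 genes at 50 or more in at least 3 libraries, all ages in one fit, with Benjamini-Hochberg adjustment and a threshold of 0.05. The fit was tested on simulated data with the same spread setting for every gene and no library apart from its group. That test therefore does not show how the fit handles libraries such as 6 h A and 12 h A. Alternatives were B and C only, each library left out, a pseudocount of 10, no filter, median-ratio scaling, a replicate block, and edgeR and DESeq2 on recovered reads. Ratios and shares carry 95% exact intervals. The most alike genes were named as the 8 of highest Pearson r per member. List genes were named where they passed the B and C test or define a cell type. The pan-neuronal and Kenyon cell lists were given as counts, and only some genes of the ecdysone list were named. The members and lists were chosen with earlier results of these data known. Sequences are not shown.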

Additional observations from a re-analysis of the deposited data

How the results depend on the processing

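Calls across all genes depended on the replicate A libraries. Over 12 libraries limma called 0 genes in each of the 4 comparisons (6 to 24 h, 6 to 12 h, 12 to 18 h, 18 to 24 h; 943, 331, 428 and 484 at an unadjusted p under 0.05). With B and C alone it called 702, 390, 25 and 9. From 6 to 24 h these included 2 of 4 Osiris genes tested (Osi6 and Osi7), beside 4.78% of all genes lower. The pair was picked for that fall in B and C, so nothing is read from its call. DESeq2 called 171, 3, 5 and 22, and edgeR 0 in each. Median-ratio scaling gave 4 from 18 to 24 h, where it moved the median of all genes from −0.11 to 0.01. Leaving out 1 library gave 0 to 676 (676 without 6 h A), 0 to 60 (60 without 6 h A), 0 to 1 and 0 to 4. The cause was not tested.

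The Osi6 change from 6 to 12 h moved from −1.81 to −5.86 with B and C alone, and that of Osi7 from −1.66 to −7.51. With 1 library left out, Osi6 changed by −8.88 to −4.46 from 6 to 24 h, −4.64 to −0.22 from 6 to 12 h, −5.08 to −2.78 from 12 to 18 h and −1.36 to 0.76 from 18 to 24 h. Osi7 changed by −10.77 to −5.25, −5.25 to 0.27, −6.94 to −3.26 and 0. A pseudocount of 10 gave −4.65 and −4.97 from 6 to 24 h, and kept 6 and 4 of the 8 genes named as most like Osi6 and Osi7.

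The replicate letters did not pair the libraries: of 18 same-letter pairs 0 had deviations correlated above 0.1 (−0.341 to 0.0706), and a fit with the replicate block called 0 genes. Levels of 1 to 4 reads at 18 and 24 h are at the limit of depth.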
